A study of Caenorhabditis elegans with 2 samples.

Results

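Summits of RNA polymerase II at operon-like gene junctions were the 387 of 2082 reproducible peaks (18.6%, 95% Wilson interval 17 to 20.3) whose summit met 3 conditions of position. The summit lay within 500 bp of the start of a protein-coding gene, that gene followed another protein-coding gene on the same strand that ended 0 to 500 bp before it, and no protein-coding start of the other strand lay within 500 bp of the summit. The distance between the end of the upstream gene and the start of the downstream gene is called the gap. Only annotated positions chose the members. No annotation of operons was used, so these junctions are operon-like by spacing and strand alone.

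The peaks came from chromatin immunoprecipitation with sequencing against AMA-1, the large subunit of RNA polymerase II, in whole L4 larvae (the last larval stage). The larvae were of the wild-type C. elegans strain N2, with the sexes pooled. There was 1 group with 2 biological replicates and no contrast, and the larvae carried no transgene or treatment named in the labels. Whole animals mix all tissues, so more polymerase per cell and more cells with polymerase cannot be told apart. Each summit was read from the set that passed the irreproducible discovery rate procedure on both replicates (the IDR set, ce11 coordinates), and the 2082 strongest peaks of each replicate's own list gave the spread over n = 2.

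In worm operons RNA polymerase II transcribes neighbouring genes as a single precursor RNA. The upstream mRNA is cleaved and polyadenylated, and the downstream mRNA receives a spliced leader, usually SL2, by trans-splicing at a 3′ splice site a short way downstream, so a junction holds a 3′ end and a trans-splice site but not necessarily a promoter. Gene neighbours of this spacing can also be independent genes, with a promoter between them and often an SL1 leader.

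Short gaps show how a summit can lie relative to both genes. The 3 gaps below belong to strong members selected by signal, gap and nearness of the summit, with the upstream gene's end at the left and the downstream gene's start just past the right end. Capitals mark the summit base and the 5 bases on each side of it where the summit lay inside the gap. rsp-6, which encodes a splicing factor of the SR family, and imp-3 flank a gap of 233 bp at IV:7789614-7789846 on the minus strand, and the summit lay 126 bp after the end of rsp-6. ztf-7 and F46B6.6 flank 124 bp at V:9786869-9786992 on the minus strand, with the summit 76 bp after the end. dlc-1, a dynein light chain gene, and T26A5.8 flank 106 bp at III:6462857-6462962 on the minus strand, and the summit lay 144 bp after the end of dlc-1, which is 37 bp past the start of T26A5.8, so no base of that gap is in capitals. Coordinates are those of WBcel235 (ce11) and the bases were read from the RefSeq genome of that assembly.
rsp-6 to imp-3: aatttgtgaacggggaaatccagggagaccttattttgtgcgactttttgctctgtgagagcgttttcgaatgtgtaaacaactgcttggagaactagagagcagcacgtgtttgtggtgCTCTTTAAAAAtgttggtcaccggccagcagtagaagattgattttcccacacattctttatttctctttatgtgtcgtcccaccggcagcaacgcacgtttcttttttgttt
ztf-7 to F46B6.6: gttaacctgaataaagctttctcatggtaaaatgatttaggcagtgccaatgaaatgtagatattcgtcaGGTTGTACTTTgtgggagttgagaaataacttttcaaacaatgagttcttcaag
dlc-1 to T26A5.8: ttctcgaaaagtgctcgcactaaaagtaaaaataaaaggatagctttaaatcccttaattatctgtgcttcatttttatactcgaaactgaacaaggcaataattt

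At gaps of 300 to 500 bp, TTTCAG, the letters of the worm 3′ splice site, was searched for on the sense strand in the 20 bases before the downstream start. The 60 bases before the start are shown for 5 strong members with a match, picked after the values were known, with the match in capitals. In all 5 the match was the last 6 bases before the annotated start. That place is the usual one and not particular to these members. Over all gaps it held for 93 of the 98 junctions with a member and a match. It also held for 486 of 542 among all junctions and 2447 of 2942 among all protein-coding starts. The starts belong to btf-1 behind lec-1, a galectin gene (II:13200105-13200164, plus strand), F48A11.4 behind ubxn-3 (II:216622-216681, minus strand), pro-1 behind mnk-1, a protein kinase gene (II:10541997-10542056, minus strand), dld-1, which encodes dihydrolipoamide dehydrogenase, behind nspg-9 (IV:14464457-14464516, plus strand), and mdf-1, a spindle checkpoint gene, behind the histone gene his-35 (V:9544227-9544286, minus strand).
btf-1: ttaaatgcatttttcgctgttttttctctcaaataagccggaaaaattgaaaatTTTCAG
F48A11.4: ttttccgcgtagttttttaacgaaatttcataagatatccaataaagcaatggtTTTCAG
pro-1: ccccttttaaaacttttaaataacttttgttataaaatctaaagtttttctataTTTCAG
dld-1: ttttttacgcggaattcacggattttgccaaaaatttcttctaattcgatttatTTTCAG
mdf-1: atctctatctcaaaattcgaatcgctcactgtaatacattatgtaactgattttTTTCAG

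The summits of these 5 members lay 96, 249, 265, 169 and 176 bp after the upstream end, in the order shown. From the start just after TTTCAG they stood at -356, -179, -160, -250 and -257 bp, so each was well inside the gap. Their ranks were 66, 75, 172, 440 and 304 among the peaks of replicate 1 and 218, 298, 336, 432 and 902 among those of replicate 2.

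Over all members, summits gathered at one distance after the upstream gene's end. The median position was 154 bp after the end in the IDR set, with quartiles at 117.5 and 200.5 bp. It was 164 bp in replicate 1 and 147.5 bp in replicate 2 (mean 155.8 ± 11.7 bp, SD, n = 2). Of the 387 members, 307 (79.3%) lay 50 to 250 bp after the end, a range chosen after the distribution was seen; the shares were 73.4% in replicate 1 and 77.2% in replicate 2. Relative to the downstream start the median was 15 bp into the gene, but the quartiles stood at -142 and 77.5 bp, so the interquartile range was 219.5 bp from the start and 83 bp from the end.

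**Figure D1:**
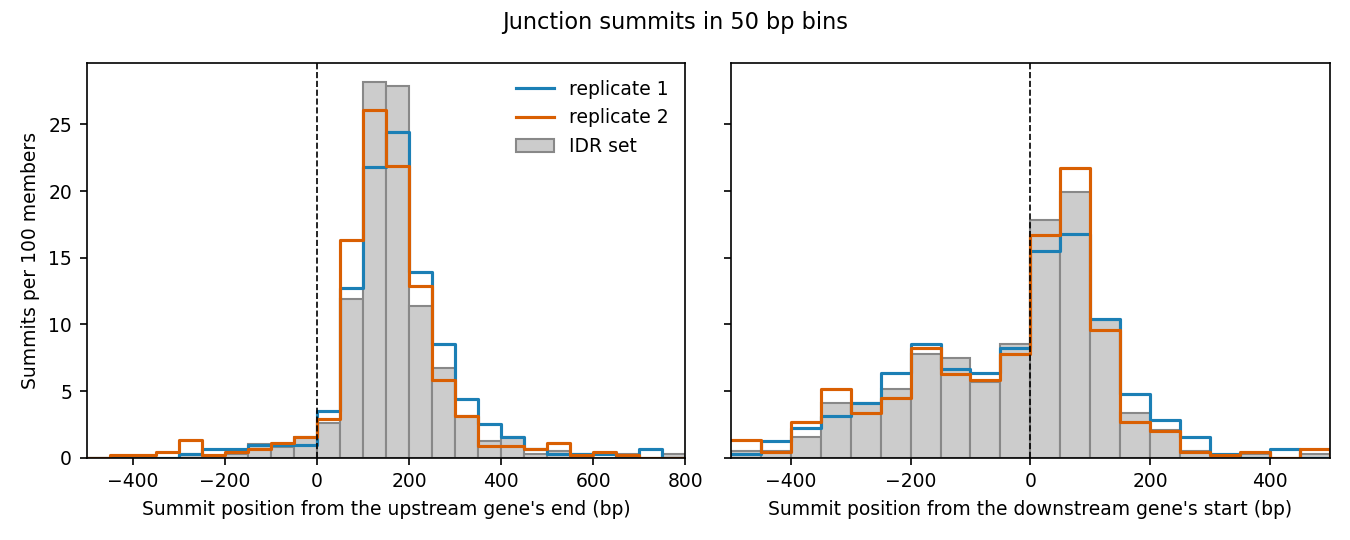
Summits per 100 members in bins of 50 bp, measured in the direction of transcription from the upstream gene's end (left) and from the downstream gene's start (right). Bars are the 387 members of the IDR set, lines are the 316 summits of replicate 1 and the 448 of replicate 2 that meet the same rule, and the dashed lines mark the end and the start. The left panel has a single peak between 100 and 200 bp and the right panel is broad, with summits before and after the start.

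Split by gap, the position from the upstream end moved little beside the position from the start. With gaps under 100 bp (98 members) the median summit was 151 bp after the end; with gaps of 100 to under 200 bp (142 members) it was 161 bp; with gaps of 200 to under 300 bp (53 members) 150 bp; and with gaps of 300 to 500 bp (94 members) 154.5 bp. The corresponding medians from the start were 81.5 and 44.5 bp inside the downstream gene for the shorter gaps, and -110 and -221.5 bp, before the start, for the longer ones. The 4 medians from the end thus spanned 11 bp and the 4 from the start 303 bp; the spans were 31.5 and 286 bp in replicate 1, and 27.5 and 287.5 bp in replicate 2.

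In replicate 1 the medians from the end were 146, 177, 145.5 and 164 bp from the shortest to the longest gaps, and in replicate 2 they were 133.5, 161, 136 and 160.5 bp. The means over the replicates were 139.8 ± 8.84, 169 ± 11.3, 140.8 ± 6.72 and 162.2 ± 2.47 bp (SD, n = 2). The second and last classes stood farther from the end than the other two in all 3 lists, and the means differed by more than the SDs. In the IDR set, however, the last class (154.5 bp) was only slightly above the first (151 bp) and the third (150 bp). The SDs cover 2 libraries and not the spread of summits within a class. There the interquartile ranges from the end were 74.25 to 138 bp in the IDR set. Whether the position from the end was constant was not tested. From the start the means were 67.5 ± 17.7, 53 ± 5.66, -123.5 ± 9.19 and -219.2 ± 18.7 bp. The order of the classes from the start was the same in both replicates, and the fall from the second to the third and from the third to the last class was larger than the spread between the replicates, while the first and second classes lay within it. Neither replicate list is independent of the IDR set, which was made from both.

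**Figure D2:**
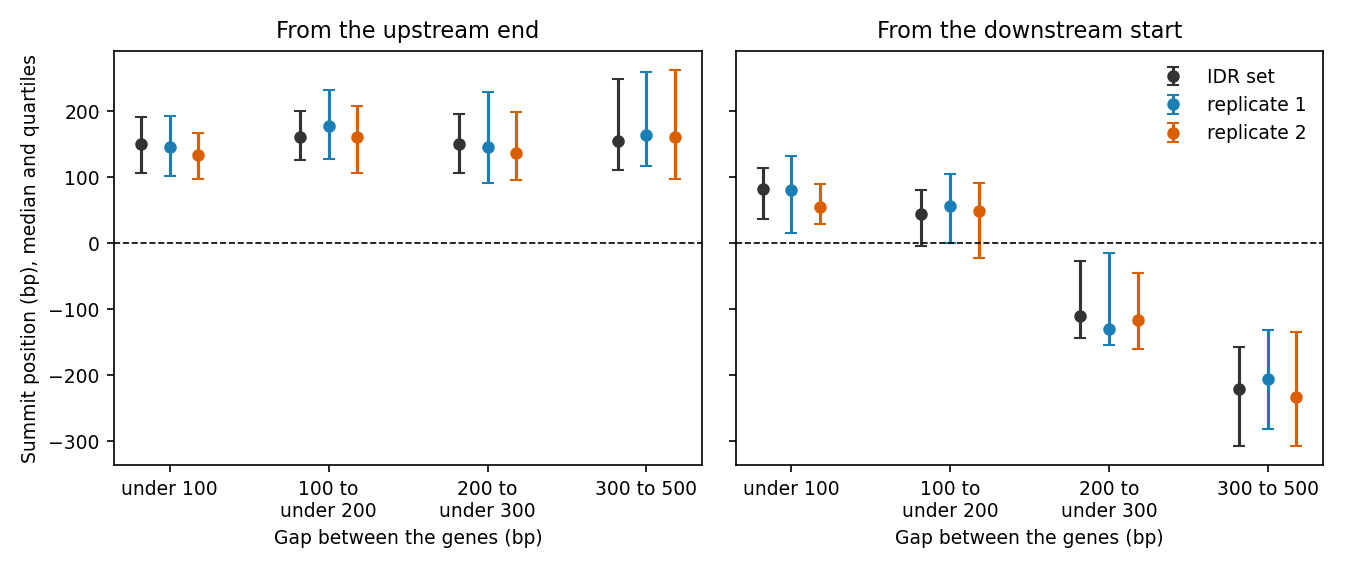
Median summit position (points) with quartiles (bars) in bp for 4 classes of gap, from the upstream end (left) and from the downstream start (right), in the IDR set and in each replicate. Medians from the end stay between 133.5 and 177 bp in all 3 lists, and medians from the start run from 81.5 bp inside the gene to 232.5 bp before it.

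A straight line through the members gave the same description. The position from the end changed by 0.13 bp per bp of gap in the IDR set, by 0.15 in replicate 1 and by 0.21 in replicate 2, where summits placed evenly in the window around the start would give 1. Spearman's rho between the gap and the position from the end was 0.06, 0.08 and 0.13 (n = 387, 316 and 448 summits, all from the same pair of libraries). The slope against the position from the start is that value minus 1 by construction.

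**Figure D3:**
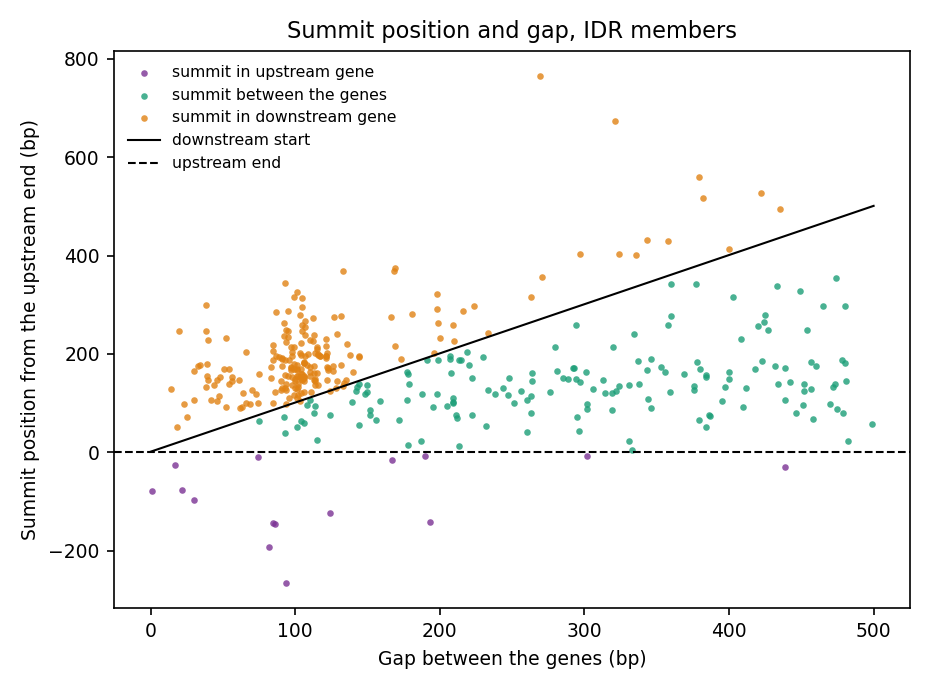
Position of each of the 387 member summits from the upstream end (vertical axis, bp) against the gap (horizontal axis, bp), coloured by where the summit lay. The solid line marks the downstream start and the dashed line the upstream end; the band of points at about the same height crosses the start line as the gap widens.

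By place in the gene models, the summit lay in the downstream gene in 211 members (54.5%, Wilson interval 49.5 to 59.4), between the genes in 161 (41.6%, 36.8 to 46.6) and at or before the end of the upstream gene in 15 (3.88%, 2.36 to 6.3). Of the bases in the same windows, 50% were in the downstream gene, 19.5% between the genes and 30.5% in the upstream gene. Replicate 1 had 52.8%, 42.7% and 4.43% of its summits in these places and replicate 2 had 54.5%, 39.3% and 6.25%. By annotation, 160 summits were in a coding exon of the downstream gene, 32 in its 5′ UTR and 19 in one of its introns, and 15 were in the 3′ UTR of the upstream gene.

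At gaps of at least 300 bp, 63 of 94 summits (67%, Wilson interval 57 to 75.7) were nearer to the upstream end than to the downstream start. Replicate 1 had 50 of 85 (58.8%) and replicate 2 had 63 of 100 (63%). In this class 12.8% of members lay within 100 bp of the start, against 78.2% at gaps of 100 to under 200 bp, where a summit at the usual distance from the end falls near the start.

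The peaks ranked below the IDR set showed how far down the list the spacing held. In the next 2082 pooled peaks (ranks 2083 to 4164), 334 summits (16%) met the rule, with a median 162 bp after the end and class medians of 150.5, 183, 150 and 157 bp; 75.7% lay 50 to 250 bp after the end. In the ranks from there to 10000, 59.6% of 535 summits did. In the weakest 20000 peaks 37.6% of 982 did, and with gaps of 300 to 500 bp their median was 353 bp after the end.

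Other ends and starts were measured the same way. At 293 IDR summits near gene ends of 1 strand with no start in the window, the median was 118 bp after the end (quartiles 36 and 196 bp), and 56.3% lay 50 to 250 bp after it; replicate 1 had 136 bp and 55.4%, and replicate 2 had 84 bp and 47.8%. At 437 summits near other starts of 1 strand the median was -34 bp from the start with an interquartile range of 348 bp, 28.5 bp in replicate 1 and -59.5 bp in replicate 2. The 50 to 250 bp range was taken from the junction members themselves, so its share at other ends is a description and not a comparison with the junctions.

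The annotation holds 3599 operon-like junctions with no start of the other strand in the window, and 383 of them (10.6%, Wilson interval 9.68 to 11.7) had a member summit. Replicate 1 had 309 (8.59%) and replicate 2 had 438 (12.2%), a mean of 10.4 ± 2.53% (SD, n = 2), and 193 junctions had a summit in both. Over all 19973 protein-coding starts, an IDR summit lay within 500 bp of 5.57%, a replicate 1 summit of 4.55% and a replicate 2 summit of 5.9%. Restricted to starts with no start of the other strand nearby, the share was 10.9% at junctions and 3.56% at the other starts; replicate 1 had 8.81% and 3.09%, and replicate 2 had 12.3% and 3.61%. The difference within these pairs was larger than the spread between the replicates. The windows were unlike in content, however. By the rule, a junction start has the end of an upstream gene on the same strand shortly before it. The other starts were not chosen to have one, and summits also lay near gene ends with no start in the window. How much of the difference came from summits belonging to the upstream end was not tested. In the same range of 50 to 250 bp, fitted to the members, upstream ends of junctions had a summit in 8.58% of cases, and ends with no start in the following 1000 bp in 2.34%. Replicate 1 had 6.49% of the former and 2.37% of the latter, and replicate 2 had 9.64% and 2.05%. Count intervals here and below cover the number of junctions or summits, not read depth, which the peak lists do not give.

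Junctions with short gaps had summits more often. The share was 12.1% of 799 junctions with gaps under 100 bp, 12.9% of 1089 at 100 to under 200 bp, 8.69% of 610 at 200 to under 300 bp and 8.45% of 1101 at 300 to 500 bp. The first and second classes lay above the other two in replicate 1 (9.76%, 9.64%, 6.89% and 7.63%) and in replicate 2 (14.6%, 14.8%, 10% and 8.99%). The order within each pair of classes differed between the lists. The means over the replicates were 12.2 ± 3.45, 12.2 ± 3.64, 8.44 ± 2.2 and 8.31 ± 0.963% (SD, n = 2). The shorter and longer classes thus differed by little more than the SDs of the shorter ones.

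The splice-site letters split the junctions with gaps of 200 bp and more. Where TTTCAG stood in the 20 bases before the downstream start and the gap was 300 to 500 bp, 38 of 149 junctions (25.5%) had a summit, against 55 of 952 (5.78%) without it. The shares were 20.8% and 5.57% in replicate 1, and 22.8% and 6.83% in replicate 2, so the pairs stood apart by more than the replicates did. At gaps of 200 to under 300 bp, 18.5% of 81 junctions with the letters and 7.18% of 529 without had a summit (12.3% and 6.05% in replicate 1, 19.8% and 8.51% in replicate 2). At gaps under 100 bp the shares were 13.4% with and 11.9% without the letters, and at 100 to under 200 bp they were 15% and 12.4%; in the latter class replicate 1 had 9.33% with and 9.71% without, and replicate 2 had 18.7% and 14%. Summits at long gaps lay 141 bp after the end with TTTCAG and 166.5 bp without it (medians of 38 and 56 members). This split by gap was made after the values were seen.

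Over all gaps, TTTCAG was in that window at 25.6% of junctions with a member summit (Wilson interval 21.5 to 30.2) and at 13.8% of junctions without one. It was there at 23.9% of junctions with a replicate 1 summit and 24.7% of those with a replicate 2 summit, and before 14.7% of all protein-coding starts; its reverse complement was in the same window at 0.522% and 1.43% of junctions with and without a member. AATAAA, the usual poly(A) signal, stood in the 40 bases up to the upstream end at 44.9% of junctions with a member, 45.8% of those without and 47.3% of all protein-coding ends. Letters rich in pyrimidines of the kind found between operon genes, spelled TACCTT, with TACTTT as a first variant, TATCTT as another and TATTTT as the last, stood in the 100 bases before the start at 43.6% of junctions with a member, 41.4% of those without and 37.8% of all starts. For these latter motifs the replicates bracketed the share without a member (50.5% and 41.3% for AATAAA, 38.8% and 46.3% for the pyrimidine motifs). A match is only a run of letters and was not taken as a used site.

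The label was checked against operons that reviews use as examples. gpd-2 and gpd-3, which encode glyceraldehyde-3-phosphate dehydrogenases, are 101 bp apart on the X chromosome and had 2 member summits. The stronger (signal value 125.6) was 325 bp after the end of gpd-2 and 223 bp inside gpd-3, at X:3113118, and ranked 143 in replicate 1 and 637 in replicate 2. The other (77.6) was 110 bp after the end and 8 bp past the start, and ranked 1496 and 1582. The first gene of that operon, mai-1, overlaps gpd-2 in the annotation, so that junction is outside the rule; the start of mai-1 had a summit in the IDR set and in both replicates.

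The junctions from mev-1 to ced-9 (the BCL-2 homologue, 3 bp), des-2 to deg-3 (acetylcholine receptor subunits, 112 bp), fib-1 to rps-16 (fibrillarin and a ribosomal protein, 109 bp) and lir-2 to lir-1 (95 bp) had no member in any of the 3 lists. ced-9 was followed at 324 bp by ttr-15, a transthyretin-related gene, with a member of signal value 175.4. That summit lay 404 bp after the end of ced-9 and 79 bp inside ttr-15, and ranked 90 and 118 in the replicates. The pairs lin-15B and lin-15A, and lir-1 and lin-26, overlap in the annotation and are outside the rule. Of the 5 junctions with an example gene downstream, 1 had a member, that of gpd-2 and gpd-3. The others carried no peak of this strength. The junction of ced-9 and ttr-15 is not counted there, since ttr-15 is not among the example genes.

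Junctions of several gene lists had a summit more often than all junctions, in the IDR set and in both replicates. Among them were junctions with a ribosomal protein, respiratory chain or vacuolar ATPase gene. Those with a CCT chaperonin, proteasome, splicing factor or RNA decay and export gene were others, also with IDR intervals above 10.6%. The signal value, a score from the authors' peak caller, was 64.4 at the median of members (range 47 to 412) and 62.8 over the IDR set. Lists were drawn up by gene name, with earlier results of these data known, and their shares are set beside the 10.6% of all junctions.

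Ribosomal protein genes flanked 42 junctions, of which 22 (52.4%, Wilson interval 37.7 to 66.6) had a summit; replicate 1 had 47.6% and replicate 2 had 52.4%. When the ribosomal protein gene was upstream, 20 of 33 junctions had one (57.6% in replicate 1 and 60.6% in replicate 2), and when it was downstream 2 of 9 did (11.1% and 22.2%). The median position of the 22 members was 184 bp after the end, against 154 bp for all members. The strongest was at rpl-36 followed by ndab-2, 149 bp after the end of rpl-36 across a gap of 104 bp, with a signal value of 92.8 and ranks of 1024 and 232. At rpl-19 and C09D4.4 the summit was 195 bp after the end with a value of 91.6 and ranks of 820 and 426.

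Respiratory chain and ATP synthase genes flanked 29 junctions, of which 13 (44.8%, Wilson interval 28.4 to 62.5) had a summit, and both replicates also had 44.8%. At atp-2, the ATP synthase beta subunit, followed by prmt-5 with a gap of 18 bp, the summit was 51 bp after the end, with a value of 132.5 and ranks of 106 and 1518. At cox-7C and F26E4.7 it was 76 bp after the end, with a value of 124.7 and ranks of 410 and 109. The 13 members had a median of 139 bp after the end.

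Vacuolar ATPase genes, which encode a proton pump, had a summit at 7 of 8 junctions (87.5%, Wilson interval 52.9 to 97.8), and each replicate at 62.5%. The strongest was at vha-1 and vha-2, 413 bp after the end and 12 bp past the start, across a gap of 400 bp, with ranks of 330 and 187. The weakest, at vha-10 and ubl-5, had the widest gap of all members, 499 bp, and ranked 14228 in replicate 1 and 4286 in replicate 2. Chaperonin genes of the CCT complex were the upstream gene at all 6 of their junctions, and 4 had a summit: cct-5 (ranks 1157 and 160), cct-6 (2962 and 217), cct-2 (2031 and 224) and cct-8 (1059 and 9083).

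Several lists differed between the replicates. Proteasome genes had a summit at 9 of 18 junctions (50%), with 22.2% in replicate 1 and 66.7% in replicate 2. Translation factor genes had 8 of 27 (29.6%), with 3.7% and 33.3%, and splicing factor genes had 12 of 40 (30%), with 20% and 40%. The strongest proteasome member, pbs-2 followed by the alpha tubulin gene tba-2, ranked 130 in replicate 1 and 2667 in replicate 2, the opposite order. For these 3 lists the replicate shares were too far apart to place the list relative to others. Genes of RNA decay and export had 10 of 39 (25.6%, with 20.5% and 33.3%).

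Mitochondrial ribosomal protein genes had a summit at 10 of 54 junctions (18.5%, Wilson interval 10.4 to 30.8; 13% in replicate 1 and 22.2% in replicate 2). With the listed gene upstream the share was 3 of 28, and downstream 8 of 27. The interval of each remaining list reached the share of all junctions, 10.6%. RNA polymerase II and general factor genes had 5 of 36 (13.9%), aminoacyl-tRNA synthetase genes 2 of 22 (9.09%), Mediator genes 1 of 16 (6.25%) and mitochondrial import genes 1 of 7 (14.3%). Genes named fib, nol, pro, wdr or lpd, of which only some act in ribosome assembly, had 5 of 21 (23.8%, 10.6 to 45.1). Genes named col, dpy, rol, sqt or bli, mostly collagens of the cuticle, had 6 of 50 (12%); of the 6, dpy-11 is known as a thioredoxin-like gene and dpy-28 as a dosage compensation gene, and neither is a collagen.

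**Figure D4:**
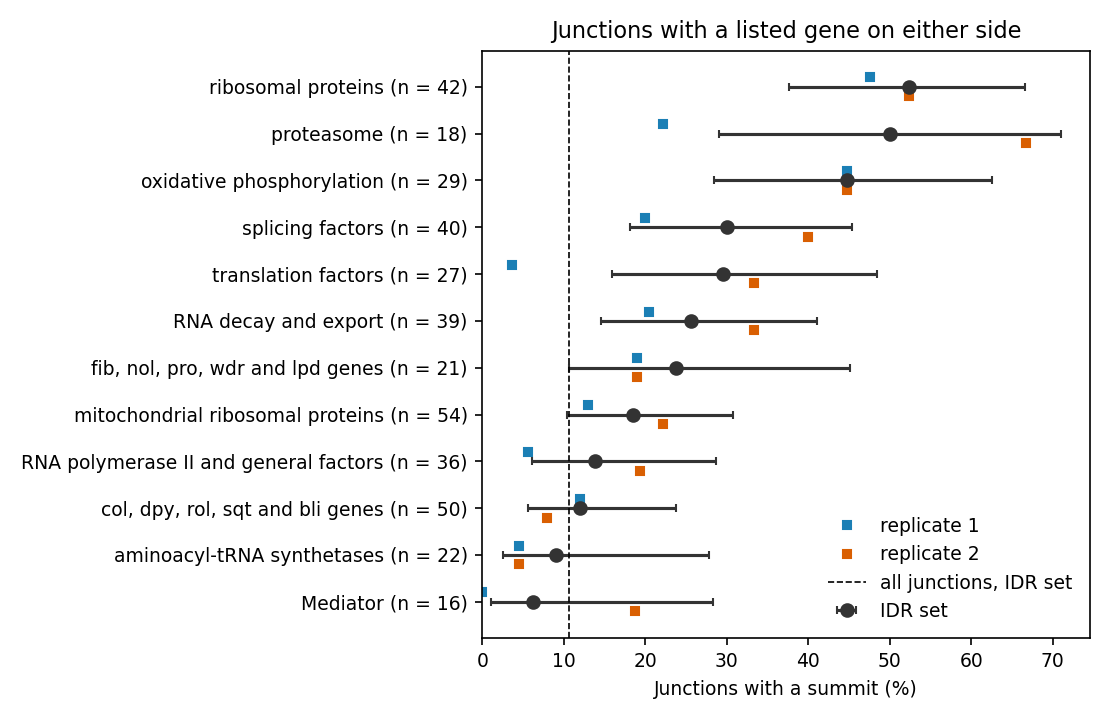
Share of junctions with a summit (%) for lists with at least 15 junctions where either gene belongs to the list. Black points are the IDR set with 95% Wilson intervals, squares are the replicates and the dashed line is the share of all junctions, 10.6%. Ribosomal protein and oxidative phosphorylation junctions stand right of the line in all 3 lists, at 44.8% to 52.4%. So do those of the proteasome, splicing factors, RNA decay and export, and mitochondrial ribosomal proteins. The fib, nol, pro, wdr and lpd genes do as well. The line is the IDR share, and the shares of all junctions in the replicates were 8.59% and 12.2%.

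Some of the strongest members stood apart in position or width. As a set, the 96 members of highest signal had a median of 143 bp after the end, with quartiles at 88.75 and 195 bp. The member of highest signal was at kel-3 behind ant-1.1, whose product exchanges ADP and ATP across the inner mitochondrial membrane. This member had a signal value of 412.3 and ranks of 13 and 9. Its summit stood at -15 bp from the annotated upstream end, inside a 3′ UTR. The matching summit was 37 bp after that end in replicate 1 and at -16 bp in replicate 2. Another protein-coding gene, cdk-5, overlaps this gap. At icl-1, a glyoxylate cycle enzyme gene, and fbxb-72 the value was 301.1 and the ranks were 15 and 117. The summit was 66 bp after the end of icl-1 across a gap of 379 bp. That peak ran from V:724016 to 728105, back past the end of icl-1 at 724332, where the median width of members was 344 bp. At mdh-1, a malate dehydrogenase gene, and dpy-11 the value was 213.2, with the summit 106 bp after the end and ranks of 54 and 55. At H40L08.2 and H40L08.9 it was 211.6, and the replicates differed, at ranks 23 and 1675.

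Some members lay far beyond the usual distance: 28 (7.24%) were over 300 bp after the end, where the rule itself allows no summit more than 200 bp before the start. Among the 15 strongest members these were aldo-2 behind mig-21 (an aldolase gene, value 201.7, 674 bp after the end and 352 bp past the start, in an intron), ttr-15, the histone gene his-37 behind C50F4.6 (158.1, 315 bp after the end, 51 bp past the start) and F18E3.11 behind str-41 (146.6, 527 bp and 104 bp). The rest of the 15 included E01G4.3 and pqn-27 (190.1), rsp-6 and imp-3 (177.5), lec-1 and btf-1 (171.3), ubxn-3 and F48A11.4 (160.9), and egl-30, the Gq alpha gene, and the emerin gene emr-1 (142.6). Their summits lay 172, 126, 96, 249 and 79 bp after the end, in that order, across gaps of 233 to 479 bp. At him-5 and D1086.3 (181.9) and at Y53F4B.12 and cmtr-1 (176.8) the summit lay by an annotated snoRNA, and the part of that gene in the signal was not tested. Over all members, 18 (4.65%) were within 200 bp of a non-coding RNA gene, against 14.9% of the IDR set, and without them the median from the end was 156 bp.

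The members nearest the limits of the rule were checked on both sides. The widest gap inside was that of vha-10 and ubl-5, and the next outside were arf-6 and rad-54.B (502 bp) and K05C4.4 and K05C4.7 (506 bp). The narrowest gap, 1 bp, was at icd-1 and C56C10.7. The summit farthest past a start was 495 bp into T12D8.5, and the nearest outside was 507 bp into nspe-1. The farthest before a start stood at -471 bp from that of pqn-27, another summit of that junction, and the nearest outside stood at -520 bp from the start of atp-4.

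Runs of 2 or more same-strand genes with gaps of 0 to 500 bp numbered 2652, and 347 had a junction summit. In runs whose first start was over 1000 bp from the first junction's start, the first gene also had a summit within 500 bp of its start in 67 of 306 runs with a junction summit (21.9%, Wilson interval 17.6 to 26.9) and in 94 of 2090 without (4.5%, 3.69 to 5.47). Replicate 1 had 17.9% and 3.04%, and replicate 2 had 24% and 5%. The last gene's end had one in 9.48% and 1.48%, with 10.1% and 1.17% in replicate 1 and 6.51% and 1.85% in replicate 2. Most runs with a junction summit thus had none at the first start in any list.

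Within runs of 4 or more genes (193 runs), a summit was at the first junction in 17.6%, at the second in 10.9% and at the third in 8.81%. Replicate 1 had 10.9%, 6.22% and 5.18%, and replicate 2 had 23.8%, 12.4% and 9.84%, the same order. The median gaps were 153, 132 and 123 bp. Among junctions with gaps of 100 to under 200 bp the shares were 21.7% of 60, 15.9% of 82 and 7.46% of 67. Over all gaps, the first share of the IDR set differed from the second and from the third by less than the replicates differed at the first junction.

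**Figure D5:**
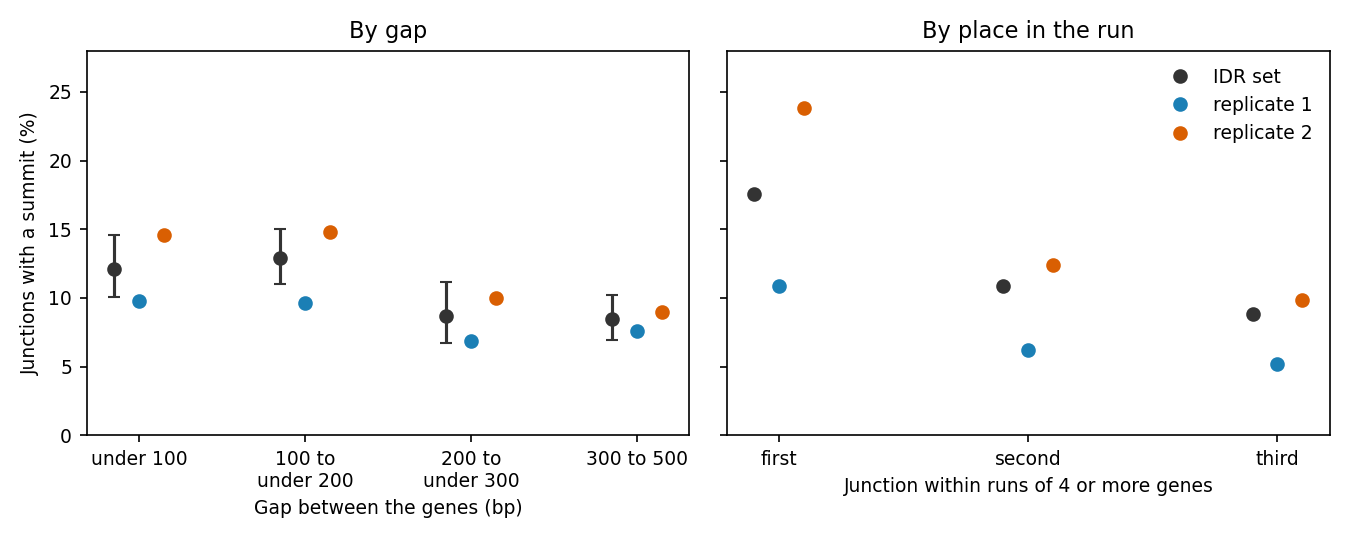
Share of operon-like junctions with a summit (%) by gap (left; bars are 95% Wilson intervals for the IDR set) and by the place of the junction within 193 runs of 4 or more genes (right), in the IDR set and each replicate. The share is higher at the first junction (17.6% in the IDR set) than at the third (8.81%) in each list, but the replicates lie farther apart at the first (10.9% and 23.8%).

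More than 1 junction of a run had a summit in 31 runs, and 3 had in 4 runs. One was the run of nfx-1, C16A3.6, C16A3.5 and znf-622, with gaps of 38, 100 and 116 bp, where every junction had a summit in the IDR set and in replicate 2, and 1 had in replicate 1. Another was rpl-36, ndab-2, epg-4, yju-2 and F37C12.21, with 3 of 4 junctions in the IDR set, 2 in replicate 1 and 3 in replicate 2. The run of 9 genes around rsp-6 had summits at 3 neighbouring junctions, from C33H5.13 to tag-322, with 3 in replicate 1 and 4 in replicate 2. The last, from xrep-4 through vha-10 to tns-1, had 3 in the IDR set but 0 in replicate 1 and 2 in replicate 2.

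By chromosome, a summit was at 14.3% of junctions on chromosome III, 13.4% on I, 13.1% on IV, 10.7% on II, 6.58% on V and 4.48% (12 of 268) on X. In replicate 1 the shares on III, I and IV were 10.2%, 10.4% and 11.5%, those on V and X 5.56% and 5.22%. In replicate 2 they were 17.6%, 16.3% and 14.7%, and 7.26% and 2.24%. V and X were the lowest in both, with X below V in each list, though only slightly in replicate 1. The order of III, I and IV differed between the replicates. As a share of each chromosome's IDR summits, members were 21.5% on I, 20.5% on II, 20.8% on III and 20.4% on IV. They were 16.1% on V and 6.47% on X. By this share chromosomes I to IV were alike.

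Peaks near most members were found in both replicates. Within 100 bp of the member summit, replicate 1's full list of 30000 peaks had a summit for 364 members (94.1%), replicate 2's for 359 (92.8%) and both for 337 (87.1%; 81.7% over the IDR set). Among the 2082 strongest peaks of each, both had one for 175 members (45.2%; 35% over the IDR set) and neither for 26 (6.72%). Where both had a summit, the pair were 34 bp apart at the median (quartiles 14 and 59 bp), a distance that the 100 bp match limits. The resolution is that of the caller: 353 members (91.2%) had the fixed width of 344 bp with the summit in the middle.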

How the data were processed

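AMA-1 chromatin immunoprecipitation with sequencing was analysed in 1 group of 2 biological replicates, as the labels number them. The deposited files are narrowPeak lists on ce11: an IDR set of 2082 peaks, and 30000 peaks each for replicate 1, replicate 2 and the pooled reads. The signal value is a score deposited by the authors' peak caller, used to rank peaks within a list; the summit offset is the deposited column 10. For caller, thresholds and aligner, the sources used here give no name. The control and the ce10 lists were not analysed here. Read depth is unknown.

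Summits were placed against Ensembl release 115 protein-coding genes (WBcel235, 19973 genes), from the outermost start and end, each at its nearest qualifying start. To compare lists of like length, the 2082 strongest peaks of each replicate were used. Python 3.11.15, numpy 2.4.6 and scipy 1.17.1 were used, and placement was tested on simulated data. Shares have 95% Wilson intervals and there are no tests, since there is no contrast.

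The members and gene lists were chosen with earlier results of these data known. Named junctions are the 15 of highest signal, up to 2 per list, the 5 with the largest replicate difference, those at the limits and the example operons; the runs, further list members and the 5 start sequences were chosen after their values were seen. Alternatives were another window, gap limit, peak set or annotation, each replicate alone, and leaving out non-coding genes.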

Additional observations from a re-analysis of the deposited data

How the results depend on the processing

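The median position from the upstream end was 154 bp. It stayed between 144 and 164 bp under every alternative except a gap limit of 1000 bp, which gave 169 bp. Those within this range differed from 154 bp by less than the SD of the replicates, 11.7 bp. Each replicate alone, at 148 and 164 bp, is among these alternatives and also gave that SD, so these 2 are no separate check. Other values moved more, and the cause was not tested beyond what each setting adds or removes. With the 1041 strongest IDR peaks there were 210 members, 45.7% of them between the genes, the median from the start was -4 bp and 5.75% of junctions had a summit. With the 4164 strongest pooled peaks there were 721 members, 35.9%, 36 bp and 19.5%. A window of 250 bp gave 36.3% between the genes and a median of 33.5 bp from the start, and a window of 1000 bp gave 38.1%. A gap limit of 250 bp gave 21.8% and 48 bp, and one of 1000 bp gave 46.8%, -2 bp and 8.09% of junctions. With 1 replicate left out the median from the start ran from 4.5 to 15 bp. The medians of the gap classes spanned 9 to 43.5 bp from the end and 143.5 to 308.5 bp from the start; the gap limit of 1000 bp could not change this, since the classes stop at 500 bp. No paired analysis was possible because there is 1 group and no contrast. Depth and the caller's summit placement limit the precision of single positions.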

Other observations

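In the IDR set, the 96 members of highest signal (79.7 to 412) had a median gap of 194 bp and the 99 of lowest signal (47 to 53.9) one of 116 bp; 50% and 28.3% had a gap of 200 bp or more. The gap at high and low signal was not computed for the replicates, so whether they shared this difference is not known. Another measure is the median signal by gap class, from the shortest to the longest gaps. It was 42.6, 38.8, 40.9 and 41.5 in replicate 1, and 29, 29.8, 26.9 and 32 in replicate 2. In the IDR set it was 63.1, 61.9, 67.8 and 67.5.

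The 5 members whose rank differed most between the replicates had a summit in 1 replicate list only. herd-1 and sql-1 ranked 94 in replicate 2, K08D12.3 and rpi-2 ranked 157 there, and sti-1 and srbc-58 ranked 175 there, and replicate 1 had no summit within 100 bp of any of them. pqn-70 and bgal-1 ranked 170 in replicate 1 and the collagen gene col-153 and F17C11.4 ranked 184, and replicate 2 had none within 100 bp.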
